A study of Mus musculus with 7 samples.

Results

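The transcripts described here carry RIKEN clone names that begin with 1700, given to full-length cDNA clones from a library of adult mouse testis. They were chosen by name: a probe set was a member if the platform annotation paired it with exactly 1 gene symbol, and that symbol was 1700, 3 more digits, a letter, 2 digits and Rik. The rule used no expression value. It took 308 of the 23493 probe sets with 1 symbol, which read 303 genes. RefSeq, matched by Entrez identifier for 305 of these probe sets, lists 212 as lncRNA, 80 as protein coding, 12 as one of its pseudogene types and 1 as miscellaneous RNA.

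RNA of mouse sperm was measured on 7 Affymetrix arrays. One array held RNA of C57BL/6 sperm from a pool of 5 males. TG3 had 3 arrays of pools of 4 males that carried a KDM1A transgenic construct, and nonTG3 had 3 arrays of pools of 4 males, their littermates without it. KDM1A is a histone demethylase, the construct had been injected into C57BL/6 zygotes, and heterozygous males bred to C57BL/6 females had passed it on to generation 3. Ages, the promoter that drives the construct and any male shared between pools are not given in the labels, so p-values measure only the spread between these pools. TG3 and nonTG3 together are called the line below. Values are log2 intensities that the authors made with RMA, a method that corrects background, normalizes arrays and turns the probes of each probe set into a single value. The comparison with C57BL/6 rests on 1 array with no replicate, whose spread was taken to be that of the other groups.

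A clone name says which library a cDNA came from and nothing of its function. Adult testis is filled with spermatocytes and spermatids, germ cells that transcribe many genes read in few other tissues, long non-coding RNAs among them. During the last steps of sperm formation transition proteins and then protamines replace most histones, transcription stops, and most of the cytoplasm with its RNA is shed. Mature sperm therefore carry a remnant of RNA made earlier. In bulk samples, fewer cells of a type and less RNA per cell cannot be told apart.

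The labelled cell type was checked against marker lists. Genes of the spermatid nucleus averaged 7.53 to 9.46 on the 7 arrays and flagellum genes 6.15 to 7.40, with 0 of 10 and 1 of 38 genes below the array median everywhere. Spermatogonial genes averaged 3.84 to 4.25. Genes of the epididymal epithelium averaged 4.21 to 4.9, with 6 of 18 below the array median everywhere, but Defb2 read 8.99 on C57BL/6 and averaged 9.89 in the line. Those of fibroblasts, muscle and vessels averaged 4.37 to 5.54, with 5.54 on TG3 replicate 1 and 5.35 on nonTG3 replicate 3. The pools were thus not shown to be free of RNA of other cells. Mitochondrially encoded genes averaged 11.25 on the C57BL/6 array and 9.98 to 11.55 on 4 arrays of the line, but 8.80 on TG3 replicate 1 and 8.91 on nonTG3 replicate 3, so results are also given without these 2 arrays. Array medians of the whole table were 3.52 to 3.61. Whether a value below 3.52 lies above background was not measured, so no fold is given for a transcript whose mean in the line is below it.

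The 1700 transcripts stood higher on the C57BL/6 array than on any array of the line. Their median was 4.86 on C57BL/6, 3.92, 3.91 and 3.84 on the TG3 replicates and 3.91, 3.91 and 3.99 on the nonTG3 replicates. The line's arrays thus lay within a narrow band, with the C57BL/6 array above it. The median of all 23493 probe sets was 3.73 to 3.80 on the 7 arrays. At a level of 6 or more there were 83 members on C57BL/6, 41, 35 and 23 on TG3, and 33, 35 and 49 on nonTG3. On TG3 replicate 3, 86 members had their lowest value of the line, against 30 to 55 on each other array.

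**Figure D1:**
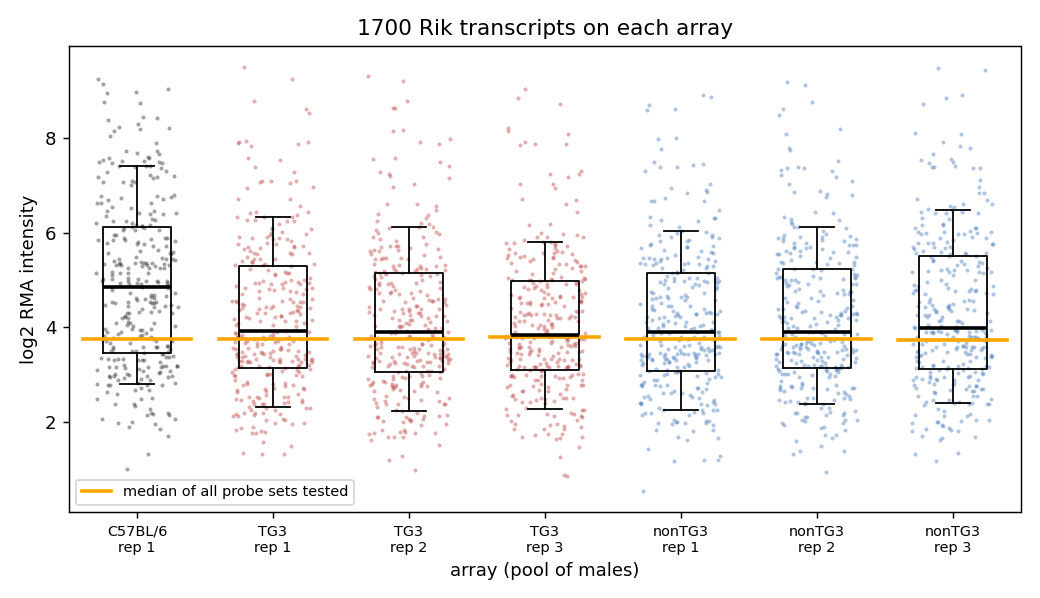
Log2 RMA intensity (vertical axis) of the 308 members on each of the 7 arrays (horizontal axis). Points are members, boxes span the quartiles with the median as a line, whiskers end at the 10th and 90th percentiles, and orange lines mark the median of all 23493 probe sets tested. The C57BL/6 median is 4.86 and the line's array medians are 3.84 to 3.99.

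The line against C57BL/6 asks how sperm RNA of these males, with or without the transgene, compares with that of the strain into which the construct was injected. Of the 308 members, limma called 73 lower in the line (23.7%) at a Benjamini-Hochberg adjusted p under 0.05, where 2.85% of all probe sets tested were called lower. It called 0 members higher, where 0.17% of all were. At an unadjusted p under 0.05 there were 4 higher members, and the share of all probe sets at that threshold was not counted. The median difference was -0.42 log2 units over the members and 0.04 over all probe sets, and 242 members had a negative difference. All 6 arrays of the line lay below the C57BL/6 value for 174 members (56.5%), against 14.3% of all probe sets. All 6 lay above it for 12 members (3.9%), against 18.2% of all. The 73 called probe sets read 72 genes. Their differences ran from -4.77 to -0.84 log2 units with a median of -1.88, 68 were lower by at least 1 unit and 27 by at least 2. Their median value was 6.11 on C57BL/6 and their median mean in the line was 4.23.

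These calls depend on the arrays of the line as well as on the single C57BL/6 array. Leaving out 1 array of the line at a time gave 40 to 56 called members. There were 40 when TG3 replicate 2 was left out, 42 when nonTG3 replicate 1 was, and 42 when nonTG3 replicate 2 was. The fits called 13% to 18.2% of members, where 1.46% to 2.04% of all probe sets were called lower. Of the 73, 33 kept their call in all 6 such fits. Without both arrays of lowest mitochondrial RNA, limma called 0 of 23493 probe sets and 0 members, at a smallest adjusted p of 0.0653 among members. In that fit the 73 had a median difference of -1.93, and for each of the 73 all 4 remaining arrays of the line lay below C57BL/6. The 73 had been called on these same arrays, which favours both of these results. Over all 308 members, not so chosen, the median difference in that fit was -0.50, and over all probe sets it was 0.04.

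**Figure D2:**
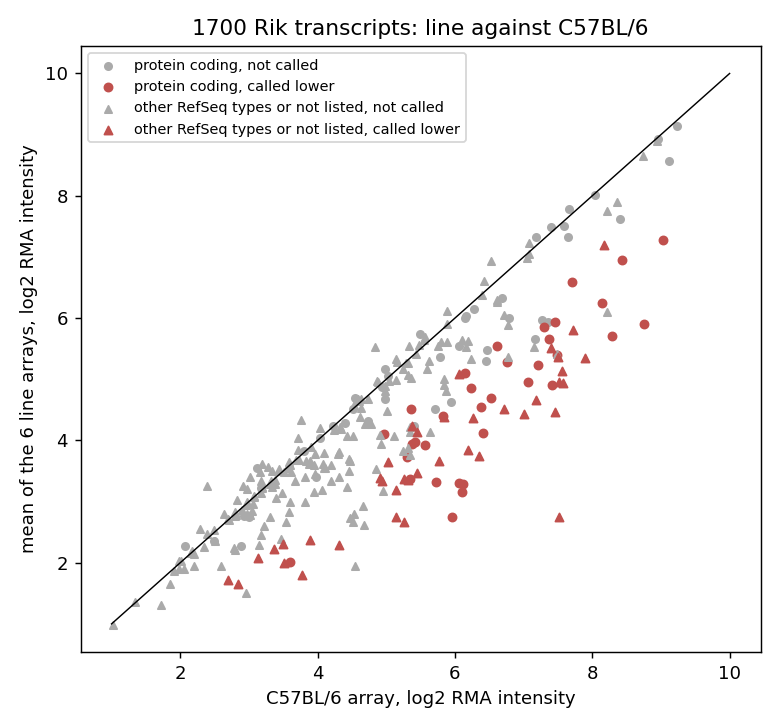
Mean of the 6 arrays of the line (vertical axis) against the C57BL/6 array (horizontal axis), both in log2 RMA intensity, for the 308 members. Circles are protein coding genes, triangles other RefSeq types or genes not listed, red marks the 73 members called lower, and the line marks equal values. Red points lie below the diagonal over most of the range, the brightest of them at 9.03 on C57BL/6. The members of highest mean in the line lie near the diagonal.

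The largest decrease was that of 1700031L13Rik, a lncRNA in RefSeq. It read 7.52 on C57BL/6, 2.18, 2.92 and 2.65 on TG3 and 3.37, 2.72 and 2.63 on nonTG3. Every array of the line was far below the C57BL/6 value and below the array median of the table, with TG3 and nonTG3 overlapping (limma adjusted p = 0.00434). The second was 1700020N15Rik, protein coding and on the X chromosome, which read 5.96 on C57BL/6, 2.71, 1.70 and 2.57 on TG3 and 2.71, 2.95 and 3.81 on nonTG3. Its spread over the line was wide, 2.74 ± 0.68 (SD, n = 6), the limma adjusted p was 0.0393, and the call was lost in all 6 fits that left out 1 array. The third was the lncRNA 1700108J01Rik, at 7.46 on C57BL/6, 4.62, 4.30 and 4.62 on TG3 and 4.62, 4.62 and 4.00 on nonTG3. Its arrays in the line stayed above the table's median, and it was 7.95-fold lower (limma adjusted p = 0.00681). The protein coding 1700016D06Rik read 6.11 on C57BL/6, 3.03, 3.18 and 3.31 on TG3 and 3.05, 3.18 and 3.18 on nonTG3 (limma adjusted p = 0.00176). Its values were equal on several arrays of the line, which lowers the SD.

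The promoters of these 4 genes are shown because they carry the largest decreases, the last of them chosen after its values were seen, with that of a member that stayed high, 1700009N14Rik, chosen likewise. They are RefSeq sequences of build GRCm38.p6, 250 bases before to 50 after the start, read 5′ to 3′ on the gene's strand. Capitals mark TGATGTCA, the cAMP response element TGACGTCA with T for its central C, and, on the reverse strand in 1700108J01Rik, GTTGCCA, known as a half-site of RFX factors.
1700031L13Rik promoter (chr5:82124664-82124963, minus strand): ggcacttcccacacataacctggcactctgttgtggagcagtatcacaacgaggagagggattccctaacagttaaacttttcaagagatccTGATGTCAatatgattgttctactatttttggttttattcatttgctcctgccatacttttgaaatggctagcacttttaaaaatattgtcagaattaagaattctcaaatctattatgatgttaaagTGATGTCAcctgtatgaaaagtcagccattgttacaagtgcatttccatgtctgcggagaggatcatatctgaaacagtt
1700020N15Rik promoter (chrX:69945031-69945330, plus strand, neither motif): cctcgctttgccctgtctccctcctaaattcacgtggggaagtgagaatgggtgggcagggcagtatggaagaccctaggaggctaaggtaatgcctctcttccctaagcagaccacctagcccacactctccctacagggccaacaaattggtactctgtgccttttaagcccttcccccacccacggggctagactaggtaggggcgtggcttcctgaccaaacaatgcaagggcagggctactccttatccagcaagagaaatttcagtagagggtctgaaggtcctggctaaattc
1700108J01Rik promoter (chr14:122233589-122233888, minus strand): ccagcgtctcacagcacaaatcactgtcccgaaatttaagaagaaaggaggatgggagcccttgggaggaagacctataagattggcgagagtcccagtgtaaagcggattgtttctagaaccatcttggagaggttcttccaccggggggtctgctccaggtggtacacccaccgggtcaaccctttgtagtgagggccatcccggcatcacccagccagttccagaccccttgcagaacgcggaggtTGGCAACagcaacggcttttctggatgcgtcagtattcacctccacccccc
1700016D06Rik promoter (chr8:11678700-11678999, minus strand): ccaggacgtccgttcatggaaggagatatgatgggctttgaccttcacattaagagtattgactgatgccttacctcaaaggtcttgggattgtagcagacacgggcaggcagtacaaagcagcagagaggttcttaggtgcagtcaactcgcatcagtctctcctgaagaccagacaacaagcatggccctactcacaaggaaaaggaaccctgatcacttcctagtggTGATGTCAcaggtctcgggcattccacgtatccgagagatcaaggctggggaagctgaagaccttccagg
1700009N14Rik promoter (chr4:39450043-39450342, plus strand): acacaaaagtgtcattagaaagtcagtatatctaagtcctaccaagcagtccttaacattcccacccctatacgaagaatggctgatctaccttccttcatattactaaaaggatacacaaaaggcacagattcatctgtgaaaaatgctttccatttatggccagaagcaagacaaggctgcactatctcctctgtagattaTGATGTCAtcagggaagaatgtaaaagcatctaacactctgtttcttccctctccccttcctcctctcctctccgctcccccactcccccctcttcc
In these windows TGATGTCA begins at -158 and -30 of 1700031L13Rik, at -20 of 1700016D06Rik and at -47 of 1700009N14Rik, counted from the annotated start, and the half-site lies at -1 of 1700108J01Rik. A match is a run of letters and no evidence that a factor binds there.

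Long non-coding RNAs made up 37 of the 73 called members, with a median difference of -1.92. Of these 37, 18 had a mean in the line below the lowest array median, and the other 19 were 1.97-fold to 7.95-fold lower. 1700013D24Rik read 7.58 on C57BL/6, 4.94, 5.02 and 4.48 on TG3 and 4.98, 5.02 and 5.20 on nonTG3, and was 6.21-fold lower (limma adjusted p = 0.00535). Its TG3 and nonTG3 arrays overlapped. 1700019G24Rik, which overlaps the dynein gene Dync1i1 in RefSeq, went from 6.35 to 3.75 ± 0.24 (SD, n = 6), a 6.03-fold difference (limma adjusted p = 0.00803), while Dync1i1 itself read 2.14 on C57BL/6 and averaged 2.23 in the line. 1700016P04Rik went from 7.52 to 4.96 ± 0.32 (SD, n = 6), with nonTG3 replicate 3 highest of the line at 5.57, and 1700051A21Rik from 7.18 to 4.66 ± 0.20 (SD, n = 6). 1700023C21Rik read 5.25 on C57BL/6 and 2.04 to 2.99 in the line, and its limma adjusted p of 0.0245 was lost in 4 of the 6 fits without 1 array. Transcribed pseudogenes gave 2 of the 15 largest decreases. 1700018B24Rik read 7.0 against 4.43 ± 0.23 (SD, n = 6), with exactly equal values of 4.55 on the 3 TG3 arrays. 1700123L14Rik, which RefSeq also lists under the nucleoporin names Npap60 and Nup50, read 7.89 against 5.35 ± 0.14 (SD, n = 6), and whether its probes also read RNA of a near-identical gene was not tested.

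A larger share of the protein coding members was called. Of 80, limma called 34 lower (42.5%), with a median difference over all 80 of -0.93, where 2.84% of all protein coding probe sets tested were called lower. Among the 34 the median difference was -1.73, and the 27 with a mean in the line at or above 3.52 were 1.79-fold to 7.23-fold lower. 1700034E13Rik had the largest of these folds: it read 8.75 on C57BL/6, 5.77, 5.98 and 5.81 on TG3 and 5.99, 5.93 and 5.90 on nonTG3, so that the line's arrays lay close together and 7.23-fold below C57BL/6 (limma adjusted p = 0.00176). 1700074P13Rik, for which RefSeq gives the synonym Tryx5, a trypsin-like protease name, read 8.29 on C57BL/6, 5.81, 5.76 and 5.04 on TG3 and 5.84, 5.84 and 6.00 on nonTG3. TG3 replicate 3 was lowest, and the difference was 5.95-fold (limma adjusted p = 0.0139), a call lost in 3 of the 6 fits without 1 array. 1700020D05Rik, with the synonym mage-g2 of the MAGE family of testis and tumour antigens, read 6.11 on C57BL/6 and 3.02 to 3.83 in the line (limma adjusted p = 0.0119), a call lost in 1 of the 6. 1700019A02Rik read 6.06 on C57BL/6 and 2.92 to 3.42 in the line (limma adjusted p = 0.00341).

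**Figure D3:**
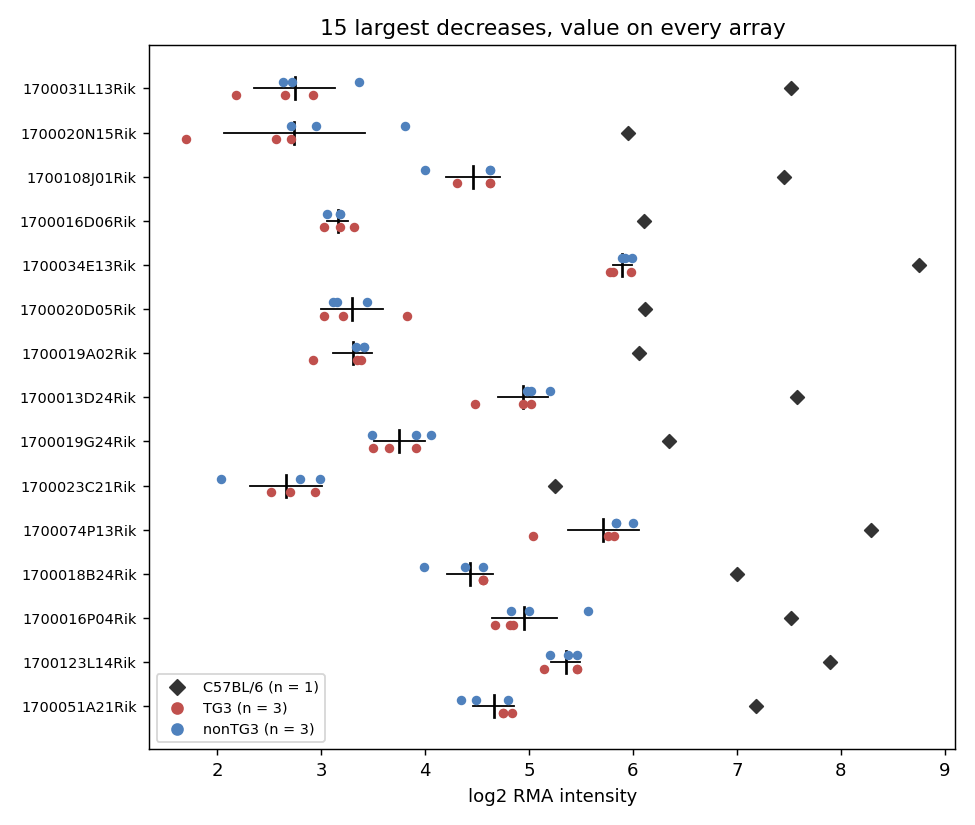
Log2 RMA intensity (horizontal axis) of the 15 members with the largest decreases on every array. Diamonds are C57BL/6 (1 array), red points TG3 and blue points nonTG3 (3 arrays each), and black bars the mean and SD of the 6 arrays of the line. Every diamond lies to the right of all 6 points, and red and blue points lie together.

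A few more protein coding members are given for what their names say, chosen after their values were seen. 1700015G11Rik, listed also as Ccdc179, a coiled-coil name, had the highest C57BL/6 value of the called coding members. It read 9.03 there, 7.28, 7.27 and 6.93 on TG3 and 7.43, 7.30 and 7.48 on nonTG3, and was 3.37-fold lower (limma adjusted p = 0.00772). Every TG3 array lay below every nonTG3 array, and both sets of arrays in the line stayed high. 1700092M07Rik, listed as Tex54, a testis-expressed gene by name, read 8.43 against 6.95 ± 0.24 (SD, n = 6) and was 2.79-fold lower (limma adjusted p = 0.0393), a call lost in 5 of 6 fits without 1 array. 1700019D03Rik, listed as smAKAP, a small membrane protein that anchors protein kinase A, read 7.46 against 5.94 ± 0.23 (SD, n = 6), and its call (limma adjusted p = 0.0425) was lost in all 6. 1700016K19Rik, listed as Liat1, a binding partner of the arginyltransferase ATE1, read 6.24 against 4.86 ± 0.13 (SD, n = 6) and was 2.61-fold lower (limma adjusted p = 0.012), a call lost in 1 of the 6.

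The share called was compared across gene types, levels and other clone names, as counts with no test. Among lncRNA members 37 of 212 were called lower (17.5%), where 4.26% of all lncRNA probe sets were, and among pseudogene members 2 of 12. Protein coding members were also brighter, with a median of 6.13 on C57BL/6 against 4.33 for lncRNA members. Within one band of level the order was the same in 3 of the 4 bands. At a mean over all arrays under 4, limma called 8 of 18 coding and 20 of 125 lncRNA members. From 4 to 6 it called 18 of 37 and 15 of 70, and from 6 to 8 it called 8 of 21 and 2 of 15. Of all probe sets tested, 1.7%, 4.37% and 4.68% were called lower in these bands. From 8 up it called 0 of 6 members of any type, where 7 of 421 probe sets tested (1.66%) were called lower. Most arrays in this mean are of the line, so members much lower there fall into lower bands. The 0 of 6 therefore does not show that bright members were spared. Clones of the other RIKEN testis libraries, told by their name prefixes, were called lower in 42 of 495 cases (8.48%), and all other RIKEN clone names in 7 of 842 (0.831%). Members and clones of the other testis libraries thus differ most among protein coding genes, with 42.5% and 10.9% called, and less among lncRNAs, with 17.5% and 8.1%.

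**Figure D4:**
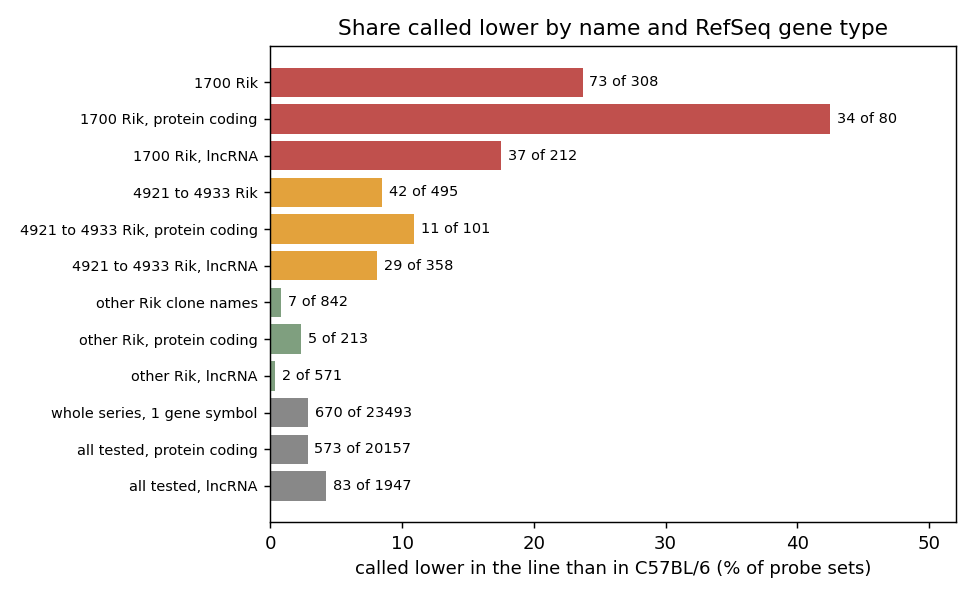
Share of probe sets called lower in the line than in C57BL/6 by limma, in percent (horizontal axis), for the members, 2 sets of other RIKEN clone names and all probe sets tested, each in all and by RefSeq type. Counts stand beside the bars, which start at 0, and the longest bar is that of protein coding members at 42.5%.

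The 8 members highest in the line were chosen by their level there, which favours transcripts that were not lower. The values of the 8 are therefore a description. Among the 83 members at 6 or more on C57BL/6, 40 were called lower, as were 320 of all 2444 probe sets at that level. That level was read on the same C57BL/6 array that the comparison uses, which favours lower calls in both counts. 1700029H14Rik, protein coding and the highest of all in the line, read 9.23 on C57BL/6, 9.25, 9.20 and 8.84 on TG3 and 8.89, 9.18 and 9.47 on nonTG3. 1700009N14Rik, also protein coding, read 8.96 on C57BL/6, with a TG3 mean of 9.03 ± 0.27 (SD, n = 3) and a nonTG3 mean of 8.81 ± 0.06 (SD, n = 3). In both, the C57BL/6 value lay inside the range of the line's arrays. The lncRNA 1700009J07Rik read 8.73 on C57BL/6 and 8.65 ± 0.12 (SD, n = 6) in the line, and the protein coding 1700016H13Rik 8.04 and 8.02 ± 0.11 (SD, n = 6). The lncRNA 1700020G17Rik was uneven, at 9.49, 8.63 and 8.07 on TG3 and 8.61, 9.12 and 9.42 on nonTG3, around a C57BL/6 value of 8.94. 1700003E16Rik, protein coding, read 7.67 on C57BL/6 and 7.79 ± 0.24 (SD, n = 6) in the line. 1700042G07Rik, listed also as P3r3urf, and the lncRNA 1700031M16Rik had all 6 arrays of the line below C57BL/6, at 8.58 ± 0.24 against 9.12 and 7.90 ± 0.12 against 8.37 (SD, n = 6), without passing the test (limma adjusted p of 0.43 and 0.26). Standard errors of the line's differences for these 8 members were 0.14 to 0.53 log2 units.

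**Figure D5:**
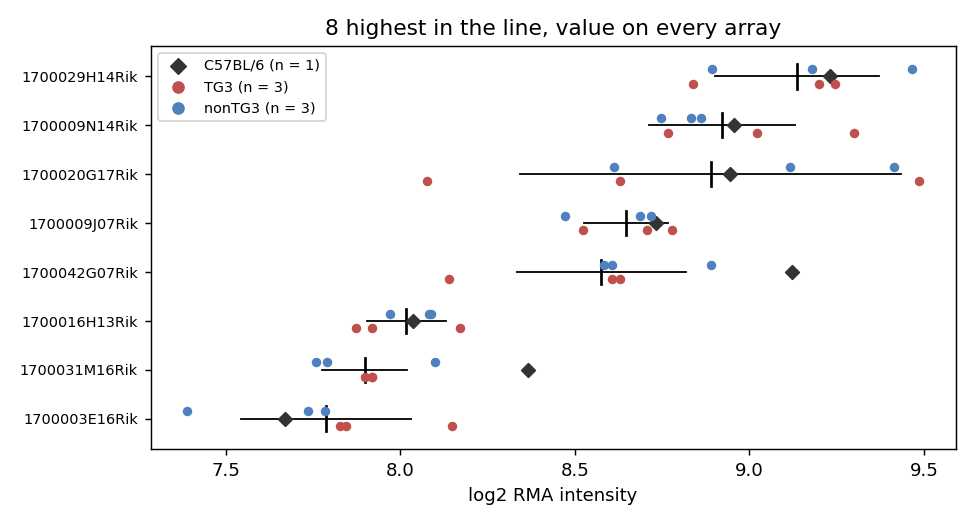
Log2 RMA intensity (horizontal axis) of the 8 members with the highest mean in the line, on every array, with symbols and bars as in the plot of the largest decreases. For 6 of the 8 the C57BL/6 diamond lies among the points of the line, and for 1700042G07Rik and 1700031M16Rik it lies to the right of them.

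Members just inside and just outside the threshold had similar values. Inside were the lncRNAs 1700071M16Rik, at 3.13 on C57BL/6 and 2.07 ± 0.17 (SD, n = 6) in the line, and 1700017J07Rik, at 6.06 and 5.09 ± 0.22 (SD, n = 6), with limma adjusted p of 0.0451 and 0.0499, calls lost in 5 and in 6 of the 6 fits without 1 array. Outside were the protein coding 1700094D03Rik, at 5.41 and 4.24 ± 0.19 (SD, n = 6), and the lncRNA 1700041C23Rik, at 4.68 and 2.61 ± 0.38 (SD, n = 6), both at a limma adjusted p of 0.0514. The largest increase over the members was 0.87 log2 units, that of the transcribed pseudogene 1700084J12Rik, named for its rank after its values were seen, which read 2.39 on C57BL/6 and 3.26 ± 0.25 (SD, n = 6) in the line at a limma adjusted p of 0.229.

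Genes read by more than 1 probe set show how far probe sets of a gene can part. Both sets of the protein coding 1700029P11Rik were called, one going from 7.71 to 6.59 ± 0.16 and the other from 4.97 to 4.10 ± 0.15 (SD, n = 6), with limma adjusted p of 0.0192 and 0.0376, calls lost in 4 and in 6 of the 6 fits without 1 array. The 3 sets of the lncRNA 1700110I01Rik had differences of -0.84, -0.44 and -0.21 log2 units and the 2 of 1700048M11Rik -0.76 and -0.64, with none called. The 2 of 1700018A04Rik parted, one at -0.62 with a limma adjusted p of 0.058 and the other at 0.02.

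TG3 and nonTG3 were each also set against the same C57BL/6 array, which the comparisons share. In TG3 limma called 64 members lower (20.8%), where 2.41% of all probe sets were called lower, with a median difference of -0.46. In nonTG3 it called 62 (20.1%), where 2.43% were, with a median of -0.35. Fitted on a comparison's groups alone, limma called 0 members for TG3, at a smallest adjusted p of 0.0827, and 0% of all probe sets. For nonTG3 it called 7 members (2.27%), where 0.23% of all probe sets were called lower. Of the 15 members with the largest decreases, 1700031L13Rik had a TG3 mean of 2.58 ± 0.38 (SD, n = 3) and a nonTG3 mean of 2.91 ± 0.40 (SD, n = 3), and 1700034E13Rik had means of 5.86 ± 0.11 and 5.94 ± 0.05 (SD, n = 3 each).

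TG3 against nonTG3 asks what goes with the transgene itself among littermates. limma called 0 members, where 0% of all probe sets were called, and the smallest adjusted p of a member was 0.923. At an unadjusted p under 0.05 there were 6 members (1.95%), 5 lower and 1 higher in TG3, where 2.38% of all probe sets reached it. The median TG3 minus nonTG3 difference was -0.05 log2 units over the members and 0.00 over all. All 3 TG3 arrays lay below all 3 nonTG3 arrays for 15 members (4.87%), against 1.65% of all probe sets, and above them for 2 members (0.649%), against 2.47%. Over the 73 members called lower in the line the median size of the difference was 0.11 and the largest 0.83, that of 1700020N15Rik.

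The protein coding 1700007K13Rik, with the synonym Rbest47, had the smallest p among members lower in TG3. It read 3.80, 3.53 and 3.78 on TG3, 4.21, 4.17 and 4.05 on nonTG3 and 5.56 on C57BL/6. The TG3 and nonTG3 arrays did not overlap, yet they lay closer to each other than to C57BL/6 (limma adjusted p = 0.923 between TG3 and nonTG3, 0.00584 for the line). The lncRNAs 1700029M03Rik and 1700109G14Rik averaged 2.03 ± 0.32 and 3.20 ± 0.16 in TG3 (SD, n = 3) and 2.55 ± 0.10 and 3.51 ± 0.12 in nonTG3 (SD, n = 3), below the array median of the table in both. The pseudogene transcript 1700019M22Rik read 6.42, 5.31 and 5.12 on TG3 and 6.47, 6.44 and 6.83 on nonTG3, a gap carried by TG3 replicates 2 and 3. Among members higher in TG3 the smallest p was that of the lncRNA 1700025D23Rik, at 2.17 ± 0.13 (SD, n = 3) against 1.81 ± 0.06 (SD, n = 3), followed by the protein coding 1700022I11Rik, 1700003E16Rik and 1700088E04Rik, with differences of 0.29, 0.30 and 0.27 log2 units. Each of these 8 had a limma adjusted p of 0.923.

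Few protein coding neighbours of called members were themselves called lower. Their share was still above the 2.85% of all probe sets tested, with no test made. Neighbours were taken from the protein coding genes in RefSeq whose names do not follow the rule for members. Of 72 called genes, 70 had a nearest such gene that was tested. Of those neighbours 5 were called lower (7.14%), against 5 of 207 for the other members (2.42%). The neighbour of the lncRNA 1700027A15Rik was Tnp1, a transition protein of the spermatid nucleus, which read 12.40 on C57BL/6 and averaged 9.51 in the line, while the lncRNA differed by -0.98. The neighbour of 1700074P13Rik was the serine protease Prss58, which read 6.40 and averaged 4.65. That of 1700034E13Rik was the zinc finger gene Zfp474, at 5.15 and 3.17. That of 1700015G11Rik was Svip, an inhibitor of protein degradation at the endoplasmic reticulum, at 7.03 and 5.80, and 1700029J07Rik overlapped Ccdc110, at 5.76 and 3.93. A called member overlapped a protein coding gene not named by that rule in 12 of 72 cases. The other members did so in 65 of 228. RNA of overlapping genes cannot be told apart where probes lie in the shared stretch.

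The promoters of members were compared with those of other genes, as counts with no test. A RefSeq promoter was found for 235 of the 303 genes and for 16899 of the 22154 genes tested. The motifs were searched on both strands in each window of 300 bases, and a promoter could hold more than one of them. A gene was counted once if any of its promoters held the motif. The share of the table instead counts each of its 32851 promoters, so it is not in the same unit. TGATGTCA, chosen after the sequences were read, was found for 34 of 235 member genes (14.5%) and 3.21% of all genes tested. It was in 3.62% of all promoters of the table. GTTGCCA was found for 12.8% of member genes, 4.94% of genes tested and 4.38% of the table's promoters. TGACGTCA itself was in 1.7%, 2.64% and 1.79%, and TATAAA in 11.9%, 14.3% and 13.6%. TGATGTCA was found for 7 of 60 called genes and 27 of 175 of the other members, and GTTGCCA for 9 of 60 and 21 of 175, with no test made. Other sets of genes had shares between those of the members and those of all genes tested. TGATGTCA and GTTGCCA were in promoters of 8.56% and 9.39% of genes of the other RIKEN testis libraries. For the other genes called lower the shares were 9.03% and 11.6%. Member promoters had a median of 4 CpG pairs, as did those of the other testis libraries, against 13 over all genes tested.

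Some marker lists of germ cells and of other testis cells also held genes called lower in the line. In the same fit, where 2.85% of all probe sets were called lower, limma called 7 of 10 genes of the spermatid nucleus and 10 of 20 of the acrosome. It also called 11 of 38 of the flagellum and 6 of 23 of meiotic spermatocytes lower, with 0 called higher in each of these lists. Of Sertoli cell genes it called 2 of 16 lower and of Leydig cell genes 4 of 9. The Sertoli cystatin Cst9 read 7.66 on C57BL/6 and 2.94 ± 0.36 (SD, n = 6) in the line. Cyp17a1, which Leydig cells need to make androgens, read 6.56 and 2.40 ± 0.25 (SD, n = 6). Other genes of these lists stayed near their C57BL/6 value. Clu of the Sertoli list read 7.88 and averaged 7.74 in the line. Fabp3 and Scarb1 of the Leydig list read 6.52 and 5.90 and averaged 6.23 and 6.00. The median difference was -0.17 log2 units over the Sertoli list and -0.30 over the Leydig list. The summed level of the Sertoli list, on the log2 scale, was 9.40 on C57BL/6, 8.68 to 9.01 in TG3 and 8.17 to 8.86 in nonTG3, with Gata1, Rhox5, Rhox8, Fshr and Dhh below the median on every array. That of the Leydig list was 8.35, 7.33 to 7.67 and 7.53 to 7.75, with Cyp11a1, Hsd3b1 and Nr5a1 below the median. That of the spermatid nucleus list was 13.86, 12.24 to 12.60 and 12.53 to 12.86, and that of the meiotic list 10.85, 9.65 to 10.06 and 9.80 to 10.18, with Tex12 and Meiob below the median. The part of such cells in the lower level of the 1700 transcripts was not tested. Genes of the spermatogonia, of leukocytes, and of fibroblasts, muscle and vessels gave 0 lower calls of 16, 17 and 15. The epididymal epithelium gave 0 of 18 with 1 higher. These lists are too short to tell 0 calls from the 2.85% of all probe sets.

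Not every transcript of late sperm formation was lower. Smcp, Odf1 and Oaz3, genes of the sperm tail and of spermatids, read 11.88, 11.55 and 10.74 on C57BL/6 and averaged 11.80, 11.51 and 10.71 in the line. Acrv1 of the acrosome read 7.38 against 4.65 ± 0.09 (SD, n = 6), and Prm1, a protamine, 11.64 against 10.19 ± 0.09 (SD, n = 6). The marker lists and the members hold no gene in common.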

How the data were processed

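The deposited values are log2 intensities that the authors made with RMA, run in R 3.1.0 through oligo, with limma also named, per the submitters' processing notes. No scan batch, filter or build is stated in the sources used here. RNA had been amplified and labelled with an Affymetrix whole-transcript kit, per the labels' protocols. The table held 33604 probe sets, of which 23493 had 1 gene symbol in the platform annotation and were tested, 1801 had several and 8310 none. Arrays have no read depth, so their number limits the precision.

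The log2 values were fitted with limma 3.58.1 in R 4.3.3, with a mean per group over all 7 arrays and eBayes (4 residual and 1.65 prior degrees of freedom). Benjamini-Hochberg adjustment ran over the 23493 probe sets, and a call is an adjusted p under 0.05. Of the members, 24.7% took at most 4 distinct values over the line's 6 arrays, as did 30.9% of all tested.

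Replicate numbers did not pair the samples: same-numbered TG3 and nonTG3 arrays had correlations of their deviations of -0.449, 0.016 and -0.403. The members, lists and alternatives were chosen with earlier results of these data known. Named members were the 15 largest called decreases, the 8 highest in the line, the 4 of highest C57BL/6 value among those that differed by under 0.25, the 4 smallest p in each direction between TG3 and nonTG3, genes of several probe sets and 2 members on each side of the threshold; others are marked where they appear. Gene types, synonyms and neighbours come from the RefSeq table of GRCm38.p6, and coordinates of that table were used only to find neighbours. Alternatives were other normalizations, eBayes settings, array weights, filters, thresholds, fits on fewer arrays and the replicate block. Figures were drawn with matplotlib 3.10.9.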

Additional observations from a re-analysis of the deposited data

How the results depend on the processing

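With the single C57BL/6 array, the direction of every median and the absence of members called higher or between TG3 and nonTG3 held in all fits run. The median member difference of the line from C57BL/6 was -0.36 with repeated quantile normalization, -0.47 with cyclic loess, -0.51 for probe sets at or above the median mean, -0.48 for those with more than 4 distinct values and -0.36 with 1 probe set per gene. The median for TG3 was -0.41, -0.53, -0.63 and -0.59 under the first 4, and that for nonTG3 was -0.41, -0.43 and -0.41 under cyclic loess, the level filter and the distinct-value filter. Members called lower numbered 0 for the line, TG3 and nonTG3 without both arrays of lowest mitochondrial RNA, where the fit has 2 residual degrees of freedom and the medians were -0.50, -0.51 and -0.42. With the groups of a comparison alone they numbered 0 for TG3 and 7 for nonTG3, where 0% and 0.23% of all probe sets were called lower. Leaving out 1 array of the line gave 40 to 56 called members for the line, 34 to 41 for TG3 and 28 to 45 for nonTG3. Their medians were -0.45 to -0.37, -0.51 to -0.43 and -0.42 to -0.28. Of all probe sets, 1.46% to 2.04%, 1.15% to 1.39% and 0.953% to 1.65% were called lower in those fits. The replicate block left 0 members called between TG3 and nonTG3, with a median of -0.05 and a limma adjusted p of 0.995 for 1700007K13Rik. Of the named members' differences from C57BL/6 over all alternatives, 64 lost the call and 15 gained it. No called difference changed direction. Among uncalled ones, 15 values of 6 members changed sign: 1700009J07Rik, 1700009N14Rik, 1700016H13Rik, 1700020G17Rik, 1700003E16Rik and one probe set of 1700018A04Rik, the largest being 1700016H13Rik, at -0.02 as reported and 0.21 with repeated quantile normalization. Apart from the array fits above, the line's count stayed between 51 and 90, where 2.32% to 4.46% of all probe sets were called lower.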

Other observations

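A further 33 probe sets name a 1700 transcript together with other genes and are not members, since what they read cannot be assigned to 1 gene. Fitted over all 33604 probe sets, limma called 8 of these 33 lower in the line (24.2%), against 2.32% of the table, and 0 higher, with a median difference of -0.58. A probe set for 1700003E24Rik, 1700010D01Rik and 1700084M14Rik read 9.91 on C57BL/6 and 8.0, 8.19 and 8.23 on TG3, with 8.26, 8.35 and 8.41 on nonTG3 (limma adjusted p = 0.0045). A second probe set of the same 3 names went from 9.72 to a mean of 8.13. The probe set for Gm6812 and 1700020N15Rik read 7.93 on C57BL/6 and averaged 5.52 in the line, a smaller difference than that of the member probe set of 1700020N15Rik. Of the 8, 4 name 1700001F09Rik with Gm10377, Gm10375 and BC061237, and they read 6.93 to 7.53 on C57BL/6 and averaged 4.98 to 5.70 in the line, so the 8 are not 8 separate genes.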
